A study of Mus musculus with 8 samples.

Results

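The BCL2 family was examined in the dorsal cortex of E15.5 mouse embryos through 10 of its genes, out of 23284 gene symbols counted in each library. The 10 genes were taken by symbol: the pro-survival genes Bcl2, Bcl2l1 and Mcl1, the effectors Bax and Bak1, and the BH3-only genes Hrk, Bcl2l11, Bbc3, Pmaip1 and Bid. The set was chosen by the measured level of Hrk, whose CPM (read counts scaled to library size) was higher in the libraries labelled ErbB4 -/- of this comparison, so the Hrk difference is given as a description and carries no test. All 10 genes had a row in every library and passed the filter on low counts.

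PolyA RNA was sequenced from 4 libraries labelled WT and 4 libraries labelled ErbB4 -/-, all of strain C57BL/6 and age E15.5. The ErbB4 -/- mice lack the receptor tyrosine kinase ErbB4 from the germline and survive through a transgene that puts ErbB4 back in the heart under the α-MHC promoter. The lines were bred as separate homozygous colonies, and the labels do not say whether the libraries of a genotype came from separate litters, so p-values measure only the spread between these samples, which may be technical. Meninges and ganglionic eminences had been dissected away.

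Cells commit to the mitochondrial route of apoptosis when the effectors BAX and BAK perforate the outer mitochondrial membrane and let cytochrome c escape. The pro-survival proteins BCL-2, BCL-XL (Bcl2l1) and MCL-1 hold the effectors in check, and the BH3-only proteins, switched on by loss of trophic support, DNA damage or other stress, bind the pro-survival proteins through a short helix, the BH3 domain, and release or activate the effectors. Hrk (Harakiri, also called DP5) is a BH3-only gene known from neurons deprived of growth factor. Programmed death removes part of the progenitors and young neurons of the embryonic cortex, and Bcl2l1 and Mcl1 are known to keep these cells alive.

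The helix that gives the BH3-only genes their name is encoded in the other members too, and its coding DNA is shown because it is the element by which the family members bind each other. In 9 members, 1 complete coding sequence of the GENCODE annotation of NCBIM37 (mm9) was searched for a leucine codon followed, after any 3 codons, by a glycine or alanine codon and an aspartate codon. Pmaip1 was not searched. The pattern is a loose one, since 28% of 13829 tested genes with a complete coding sequence held at least 1 match, and each of the 9 held 1. The 33 bases around each match are given 5′ to 3′ on the coding strand, with the leucine, glycine or alanine, and aspartate codons in capitals:
Hrk: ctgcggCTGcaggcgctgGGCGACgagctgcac
Bbc3: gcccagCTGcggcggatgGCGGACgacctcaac
Bcl2l11: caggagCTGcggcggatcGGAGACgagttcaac
Bid: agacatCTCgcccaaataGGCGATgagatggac
Bax: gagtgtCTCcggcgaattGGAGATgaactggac
Bak1: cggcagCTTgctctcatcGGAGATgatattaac
Bcl2: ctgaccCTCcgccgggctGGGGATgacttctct
Bcl2l1: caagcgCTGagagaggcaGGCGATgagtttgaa
Mcl1: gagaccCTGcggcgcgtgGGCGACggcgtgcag

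The Hrk stretch lies at chr5:118619894-118619926 on the plus strand and its leucine is codon 37 of 92. Of the 33 bases, Hrk shared 21 with Bcl2l11 and 20 with Bbc3, and between 14 (Bcl2) and 19 (Mcl1) with the remaining members. Bbc3 is the only one of the 9 with an alanine codon in the second capital block, where the other members have glycine.

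The libraries were deep, with 28205703 to 38346416 counts per WT library and 31574536 to 48871480 per library labelled ErbB4 -/-. Values are given as CPM after TMM normalization, whose factors lay between 0.994 and 1.01. The targeted gene did not separate the groups: Erbb4 had 8.99 to 25.3 CPM in WT libraries and 20.7 to 24.6 CPM in those labelled ErbB4 -/-, and since counts cover the whole gene, they do not show which exons were read. The genotypes below are therefore those of the labels. WT replicate 1 stood apart on the first principal component (30.6% of the variance), at -38.9, with no other library below -6.07. Xist was at 983 to 1686 CPM in WT replicates 1 to 3 and at 2.70 to 3.82 CPM in the other 5 libraries, with the Y-linked Ddx3y at 0.257 to 0.495 and 76.4 to 80.9 CPM, so that WT replicate 4 alone shared the sex-linked pattern of the libraries labelled ErbB4 -/-.

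Hrk lies on chromosome 5 (chr5:118619773-118639487, plus strand, ENSMUSG00000046607.5). It had 20.2, 23.0, 23.8 and 23.9 CPM in WT replicates 1 to 4, from 566, 716, 912 and 839 reads. In replicates 1 to 4 labelled ErbB4 -/- it had 34.3, 28.2, 30.1 and 27.3 CPM, from 1689, 982, 1177 and 861 reads. All libraries labelled ErbB4 -/- were thus above all WT libraries, with replicate 1 of the former highest and WT replicate 1 lowest. The means were 29.99 ± 3.09 against 22.7 ± 1.73 CPM (SD, n = 4 each), which is 0.40 on the log2 scale (SE 0.089), or 1.32-fold.

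The size of the Hrk difference varied with the libraries used, while its direction is fixed by the choice of the gene. It was 0.35 (SE 0.080) on the log2 scale without WT replicate 1, lowest at 0.33 without replicate 1 labelled ErbB4 -/- and highest at 0.44 without replicate 4 of that label. Against WT replicate 4 alone, the WT library with the same sex-linked pattern, it was 0.33 (SE 0.13), where the lone WT library is assumed to vary like the others. With Xist as a covariate it was 0.33 (SE 0.15). In bulk tissue, more cells of a type and more RNA per cell cannot be told apart.

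The 250 bases before the annotated start of Hrk are shown as the promoter of the gene for which the set was chosen. They are those of the RefSeq promoter table (GRCm38.p6) and matched chromosome 5 of NCBIM37 once, at chr5:118619523-118619772 on the plus strand, which ends at the base before the GENCODE gene start. Capitals mark the motif matches listed after the sequence, in either orientation, and the matches do not overlap:
Hrk promoter: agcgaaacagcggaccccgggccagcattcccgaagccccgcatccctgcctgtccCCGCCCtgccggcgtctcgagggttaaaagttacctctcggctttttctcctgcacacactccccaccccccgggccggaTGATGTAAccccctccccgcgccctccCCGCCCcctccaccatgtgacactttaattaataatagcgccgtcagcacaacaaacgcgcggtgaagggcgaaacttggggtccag

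Searched on both strands, the GC box GGGCGG occurred 2 times in this window and occurs in 32.7% of 32851 promoter windows of the same length. The run TGATGTAA, related to sites of ATF factors and looked for after the sequence had been seen, occurred once, from 114 to 107 bases before the start, against at least once in 0.965% of the windows. AP-1 (TGANTCA, in 6.75% of windows), CRE (TGACGTCA, 1.55%), TATAAA (12.4%) and the E-box CACGTG (6.02%) were not found in these letters. Of 14 windows of 9 members, 10 windows from 7 genes had a GC box and 2 windows from 2 genes the E-box. TGATGTAA, picked from the Hrk sequence, was in 1 window, that of Hrk. These are matches of letters, and no binding was measured.

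**Figure D1:**
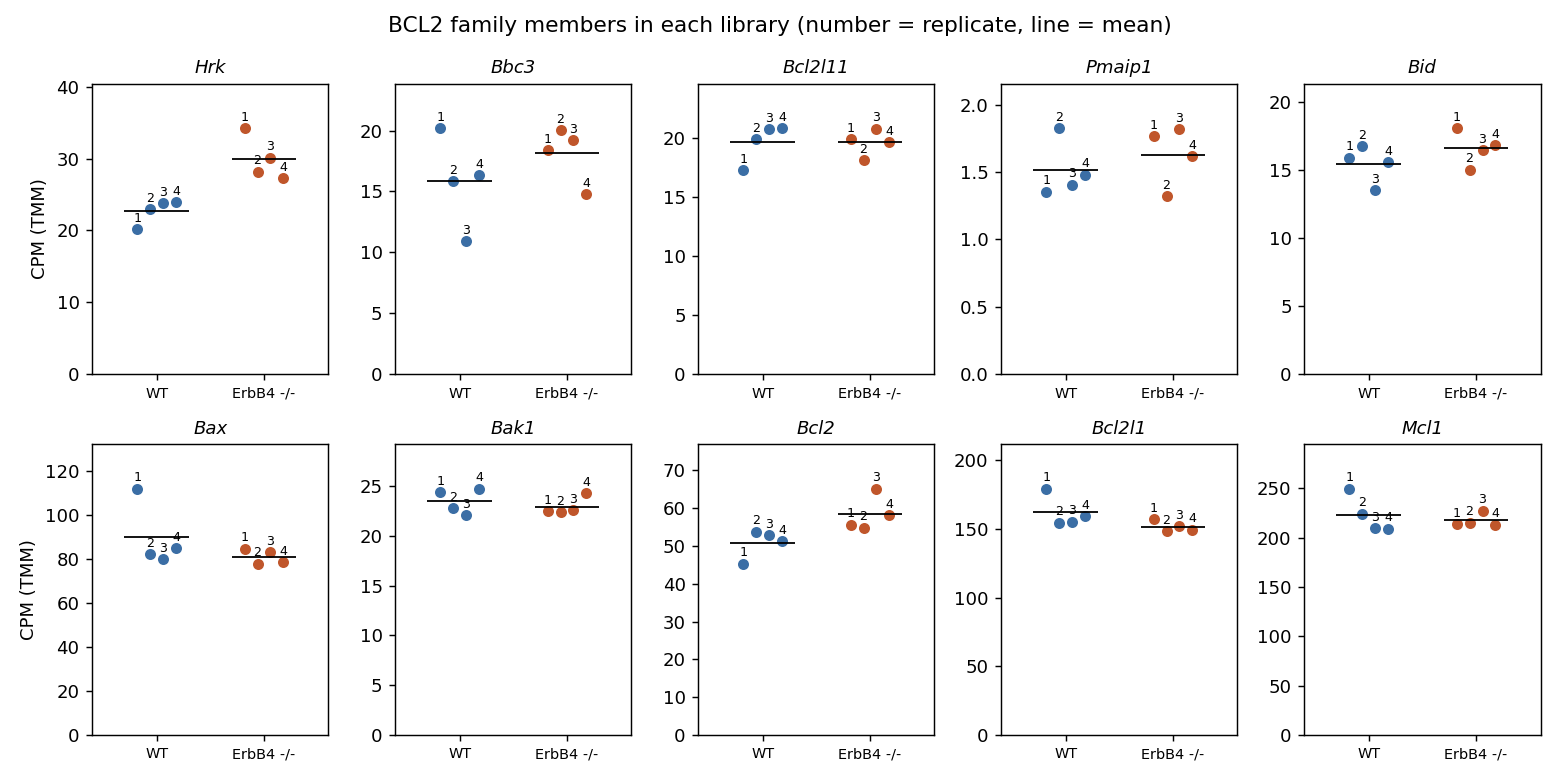
CPM (TMM, vertical axes from 0) of the 10 members in 4 WT libraries (blue) and 4 libraries labelled ErbB4 -/- (orange), with replicate numbers and group means as lines. The groups do not overlap in Hrk and Bcl2, and WT replicate 1 is highest in Bax at 112 CPM.

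Among the 9 members besides Hrk, none passed edgeR's quasi-likelihood test at an adjusted threshold of 0.05, where 0.0272% of the 14696 genes tested did (4 genes: Wdfy1 higher, and Ndst3, Pign and Lancl1 lower). At an unadjusted p under 0.05 there was 1 of the 9, Bcl2, against 5.53% of all genes (3% in the higher direction). DESeq2 also called 0 of the 9 after adjustment (0.138% of its genes). Their median log2 fold change was -0.0065, beside -0.0022 for all genes tested, with 4 members above 0 and 5 below, where 49.2% of all genes were above 0. The groups did not overlap in 1 of the 9, Bcl2, against 3.34% of all genes in either direction and 1.86% in the higher direction.

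In each of the other BH3-only genes the groups overlapped. Bbc3 (PUMA, a p53 target that binds all pro-survival members), on chr7:16894965-16903554, had 20.2, 15.9, 10.9 and 16.3 CPM in WT replicates 1 to 4 and 18.4, 20.04, 19.2 and 14.8 CPM in replicates 1 to 4 labelled ErbB4 -/-. The groups overlapped, with the highest and the lowest values both in WT libraries. On the log2 scale the difference was 0.20 (SE 0.16), with a 95% interval from -0.15 to 0.55 and an edgeR adjusted p of 0.813. It depended on single WT libraries, at 0.34 without WT replicate 1 and 0.055 without WT replicate 3.

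Bcl2l11 (BIM, induced by FOXO and JNK signalling when trophic support is lost) had 17.2, 19.9, 20.7 and 20.8 CPM in WT replicates 1 to 4 and 19.9, 18.1, 20.8 and 19.6 CPM in replicates 1 to 4 labelled ErbB4 -/-. The groups overlapped, with WT replicate 1 lowest of all libraries. The log2 fold change was -0.0065 with a 95% interval from -0.19 to 0.18 (edgeR, adjusted p = 0.990), and -0.064 (SE 0.068) without WT replicate 1. Bcl2l11 is on chr2:127951774-127988283.

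Bid (the BH3-only protein that caspase-8 cleaves, linking death receptors to mitochondria) had 13.5 to 16.7 CPM in WT libraries and 15.02 to 18.1 CPM in those labelled ErbB4 -/-. This was a difference of 0.11 on the log2 scale (SE 0.091, edgeR, adjusted p = 0.821), with an interval from -0.093 to 0.31. It was 0.047 without WT replicate 3 and 0.15 without replicate 2 labelled ErbB4 -/-. Bid lies on chr6:120841948-120866871, and 628 bases of its exons overlap Bcl2l13 on the opposite strand, whose reads cannot be told apart in libraries that do not keep the strand. Pmaip1 (NOXA, a p53 target that binds MCL-1) was the rarest member, with 38 to 87 reads per library. It had 1.36 to 1.83 CPM in WT libraries and 1.32 to 1.82 CPM in those labelled ErbB4 -/-. The 95% interval of Pmaip1, from -0.29 to 0.51, covers the Hrk value, as does that of Bbc3. The Pmaip1 difference was 0.11 on the log2 scale, 0.054 without replicate 3 labelled ErbB4 -/- and 0.21 without WT replicate 2.

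Both effectors had log2 fold changes below 0, and neither passed the test. Bax, on chr7:52717065-52722268, had 112, 82.3, 80.2 and 85.2 CPM in WT replicates 1 to 4. In replicates 1 to 4 labelled ErbB4 -/- it had 84.9, 78.0, 83.3 and 78.8 CPM. WT replicate 1 was far above every other library, and the groups otherwise overlapped. The log2 fold change was -0.15 (SE 0.097, edgeR, adjusted p = 0.810) with all libraries and -0.023 (SE 0.048) without WT replicate 1.

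Bak1, the second effector, had 22.1 to 24.8 CPM in WT libraries and 22.4 to 24.3 CPM in those labelled ErbB4 -/-. The groups overlapped, and the log2 fold change of -0.036 (SE 0.071, edgeR, adjusted p = 0.916) had a 95% interval from -0.19 to 0.12. It was -0.0099 without WT replicate 4, -0.068 without replicate 4 labelled ErbB4 -/- and -0.11 with Xist as a covariate. Bak1 is on chr17:27156755-27165954, where 357 bases of its exons overlap Ggnbp1 on the opposite strand.

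Of the pro-survival genes, Bcl2 was higher in each library labelled ErbB4 -/- than in any WT library. It had 45.3, 53.8, 52.8 and 51.2 CPM in WT replicates 1 to 4 and 55.7, 54.9, 65.2 and 58.1 CPM in replicates 1 to 4 labelled ErbB4 -/-. The groups were close, since the highest WT value, 53.8 CPM, was just under the lowest of the other label, 54.9 CPM. The log2 fold change was 0.20 (SE 0.076, 95% interval 0.036 to 0.37), and edgeR's unadjusted p of 0.0214 became 0.810 after adjustment over all genes, so Bcl2 did not pass. It was 0.15 (SE 0.062) without WT replicate 1 and 0.14 (SE 0.061) with each library's trend with transcript length removed. With Xist as a covariate it was 0.20 (SE 0.13), and edgeR's unadjusted p rose to 0.149.

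Bcl2 lies on chromosome 1 (chr1:108434755-108610851, minus strand), 39.3 Mb from Erbb4 and 0.879 Mb from Pign, a gene of GPI anchor synthesis that fell by 0.68 on the log2 scale (SE 0.092, edgeR, adjusted p = 0.0448), a call lost with RLE normalization, where 0 genes were called lower. Exons of Bcl2 overlap D630008O14Rik on the opposite strand over 558 bases. Bcl2l1 and Mcl1 had log2 fold changes below 0 and did not pass. Bcl2l1, on chr2:152593052-152657464, had 179, 155, 155 and 159 CPM in WT replicates 1 to 4 and 157, 148, 152 and 149.5 CPM in replicates 1 to 4 labelled ErbB4 -/-. The difference was -0.095 on the log2 scale (SE 0.058, edgeR, adjusted p = 0.810), and -0.043 without WT replicate 1.

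Mcl1, whose short-lived protein is needed by cortical progenitors, is on chr3:95462643-95467099. It had 209 to 249.7 CPM in WT libraries and 213 to 227 CPM in those labelled ErbB4 -/-, with WT replicate 1 again the highest. The log2 fold change was -0.037 (95% interval -0.17 to 0.10, edgeR, adjusted p = 0.900). It turned to 0.021 without WT replicate 1.

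**Figure D2:**
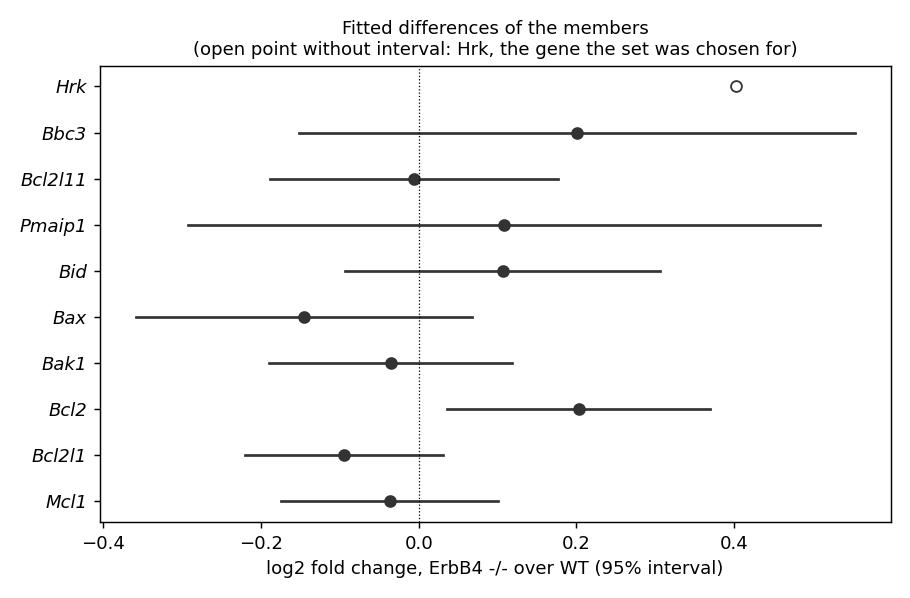
Log2 fold change of libraries labelled ErbB4 -/- over WT (horizontal axis) from edgeR for each member, with bars for the 95% interval of the 9 members tested and an open point for Hrk, which was chosen for its value of 0.40. Only the interval of Bcl2, from 0.036 to 0.37, lies to one side of 0, and its adjusted p was 0.810.

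WT replicate 1 deviated from the other WT libraries by transcript length, and some but not all members followed. Its log2 CPM minus the mean of WT replicates 2 to 4 was 0.44 for Bax, whose longest annotated transcript has 1049 nucleotides, and 0.20 for Bcl2l1 (2417 nucleotides). It was -0.22 for Hrk (5366 nucleotides), -0.25 for Bcl2l11 (5036) and -0.21 for Bcl2 (7191). Over all tested genes, in bins of length, the median deviation fell from 0.45 in genes of about 457 nucleotides to -0.61 in genes of about 13022. It was 0.39 in genes of about 890.5 nucleotides and -0.28 in genes of about 6683 nucleotides. Bbc3 at 0.51 and Mcl1 at 0.22 lay above, and Pmaip1 at -0.20 below, the middle 50% of genes of like length. Bax at 0.44 was just above the upper bound of its own bin (0.41, about 1254 nucleotides). It was below that of the next shorter bin (0.49, about 890.5 nucleotides). With each library's length trend removed, the Hrk difference was 0.36 (SE 0.078) on the log2 scale.

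**Figure D3:**
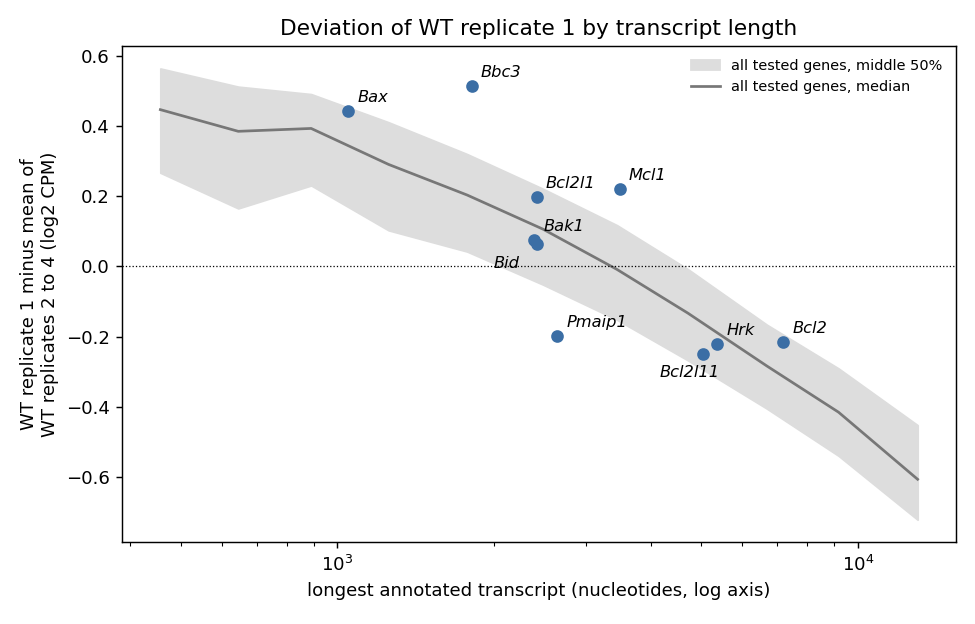
Log2 CPM of WT replicate 1 minus the mean of WT replicates 2 to 4 (vertical axis) against the longest annotated transcript (horizontal log axis) for the 10 members, with the median and middle 50% of all tested genes in bins of length. Bax lies at 0.44 and Hrk at -0.22.

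Levels were compared between members as CPM per kilobase of the longest transcript, averaged over the 8 libraries. Bax was highest at 81.6 ± 10.5 (SD, n = 8), followed by Bcl2l1 at 64.9 ± 4.04 and Mcl1 at 63.2 ± 3.90. These are the 95.1st, 93.1st and 92.8th percentiles of 14392 tested genes with a length. The order of Bcl2l1 over Mcl1 held in 5 of 8 libraries only. A wide step separated them from the other members, since Bak1 came next at 9.73 ± 0.450, below Mcl1 in 8 of 8 libraries.

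Bbc3 followed at 9.36 ± 1.75, and Bak1 was above it in only 4 of 8 libraries. Bcl2 stood at 7.60 ± 0.792 and Bid at 6.63 ± 0.565, with Bbc3 above Bcl2 and Bcl2 above Bid in 7 of 8 libraries each. Hrk was at 4.91 ± 0.845 over all libraries, at 4.23 ± 0.322 in WT and 5.59 ± 0.576 in libraries labelled ErbB4 -/- (SD, n = 4 each), so it stayed below Bid and above Bcl2l11 (3.90 ± 0.262) in 8 of 8 libraries. Pmaip1 was last at 0.595 ± 0.0797. On this scale Bax, Bcl2l1 and Mcl1 were above every BH3-only member in every library.

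The order depends on the transcript taken for the length. With the median coding transcript, Bcl2l1 (112) was above Bax (89.3) in 8 of 8 libraries and Bcl2l11 (7.88) came above Hrk (4.91), whereas Mcl1, Hrk, Bcl2 and Pmaip1 have a single annotated transcript and kept their values. Which transcripts these cells used was not measured.

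**Figure D4:**
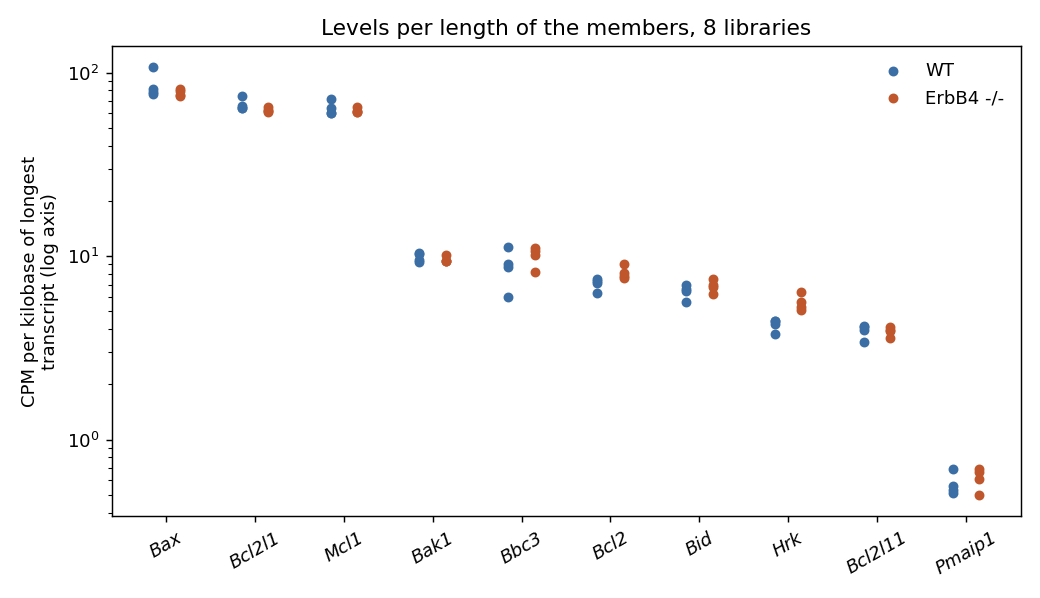
CPM per kilobase of the longest transcript (vertical log axis) of the 10 members in each WT library (blue) and each library labelled ErbB4 -/- (orange), ordered by the mean over 8 libraries. Bax, Bcl2l1 and Mcl1 lie between 60.02 and 107, Pmaip1 below 1 and Hrk between 3.76 and 6.39.

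The wider pathway was read from 5 lists of genes. None of their genes passed the adjusted threshold with edgeR or DESeq2. With edgeR 2 had an unadjusted p under 0.05, both lower, as had 2.52% of all genes in that direction. Of 15 further BCL2 family genes 9 were tested, and 3 were above 0 and 6 below. Their median log2 fold change of -0.052 was -0.0075 without WT replicate 3 and -0.085 without replicate 4 labelled ErbB4 -/-. In WT replicate 1 these genes had a median log2 CPM deviation of 0.24 from the mean of the 8 libraries, the highest of the WT libraries. Bcl2l12, a distant family member, had 5.92 ± 0.524 CPM in libraries labelled ErbB4 -/- and 7.498 ± 0.792 CPM in WT libraries (SD, n = 4 each), which is -0.34 on the log2 scale (SE 0.12, edgeR, unadjusted p = 0.0121, adjusted p = 0.810). The groups did not overlap in Bcl2l12, as in 1.48% of all genes in the lower direction. Bik, a BH3-only gene, was low, with 6 to 17 reads per library and a log2 fold change of -0.49 (SE 0.34), and Bnip3, a hypoxia-induced mitophagy receptor, was at the other end with 0.031.

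Of 12 genes of mitochondrial release and the apoptosome, 2 were above 0 and 10 below, where 49.2% of all genes were above 0, with a median of -0.051 and values from -0.17 for Aifm1, which encodes apoptosis-inducing factor, to 0.071 for Opa1, a fusion protein of the inner membrane. Of 15 genes of caspases, their substrates and inhibitors, 7 were above 0 and 8 below, with a median of -0.024. They ran from -0.26 (SE 0.12) for Birc5, the mitotic protein survivin, to 0.18 (SE 0.087) for Cflar, an inhibitor of caspase-8. Both medians depended on single libraries. That of mitochondrial release was -0.0101 without WT replicate 1, and turned to 0.0038 with Xist as a covariate and 0.013 against WT replicate 4 alone. That of the caspase list turned to 0.00089 without WT replicate 3. In WT replicate 1 the mitochondrial genes had a median log2 CPM deviation of 0.17 from the mean of the 8 libraries, the highest of the WT libraries.

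Of 13 tested genes of p53 and its targets, 7 were above 0 and 6 below, with a median of 0.00052, which ran from -0.022 to 0.042 with single libraries left out. The lowest was Phlda3 at -0.23 (SE 0.13) and the highest Eda2r at 0.16 (SE 0.14), both p53 targets. Of 16 tested genes of JNK, FOXO and stress signalling, which induce BH3-only genes, 10 were above 0 and 6 below, with a median of 0.022, which was 0.011 without replicate 3 labelled ErbB4 -/- and 0.039 without WT replicate 4. Jun, the transcription factor that JNK activates, had 89.7 ± 7.30 CPM in libraries labelled ErbB4 -/- and 102 ± 8.60 in WT libraries (SD, n = 4 each), which is -0.18 on the log2 scale (SE 0.076, edgeR, unadjusted p = 0.0332, adjusted p = 0.810). E2f1 had -0.18 (SE 0.10) and Foxo1 0.17 (SE 0.10). In WT replicate 1 the p53 genes had a median log2 CPM deviation of -0.12 from the mean of the 8 libraries. For the JNK, FOXO and stress genes it was -0.083, and both values were the lowest of the WT libraries.

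**Figure D5:**
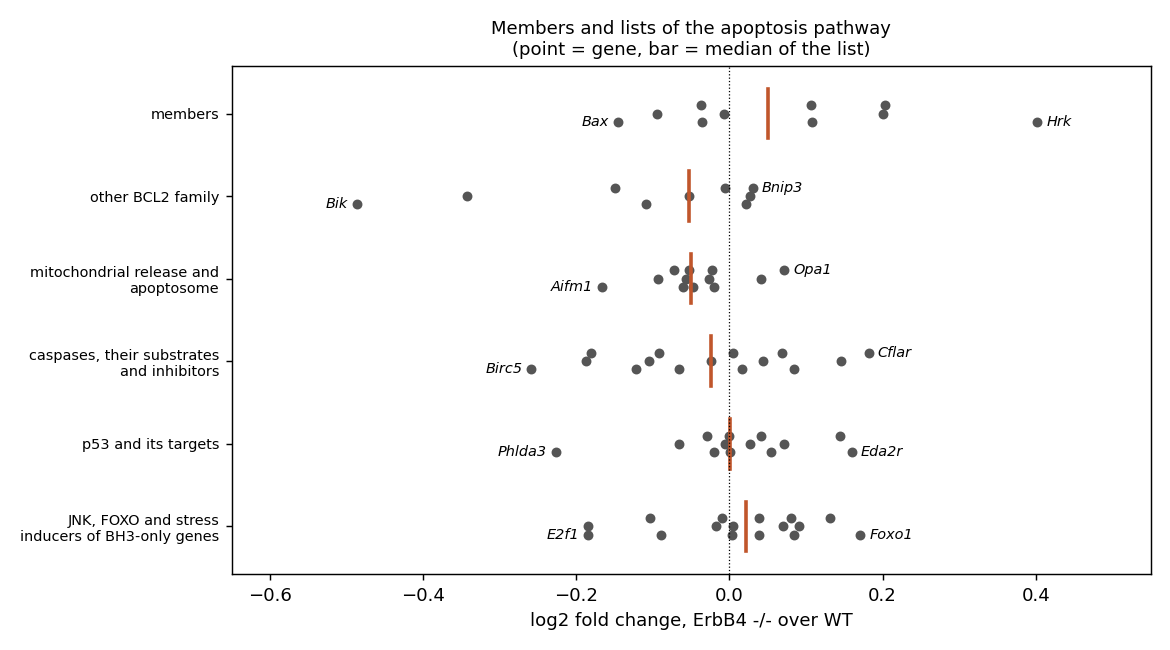
Log2 fold change of libraries labelled ErbB4 -/- over WT (horizontal axis) of each tested gene of the 10 members and 5 lists of the apoptosis pathway, with the median of each list as a bar. The medians lie between -0.052 and 0.050, the latter being that of the members with Hrk included (-0.0065 without it), and Hrk at 0.40 is the highest point.

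Among all tested genes, the 5 whose log2 CPM was most like that of Hrk over the 8 libraries were Chrnb2, Tll1, Coro2a, Tacr3 and P2rx7, with Pearson's r of 0.970, 0.963, 0.946, 0.935 and 0.929 and Spearman's rho from 0.857 to 0.976. They are the extremes of all tested genes, so no p is given. Chrnb2, a nicotinic receptor subunit, had 128 to 131 CPM in WT libraries and 133 to 138 CPM in those labelled ErbB4 -/-. Its likeness to Hrk is thus in the pattern over the libraries and not in the size of the differences (log2 fold change 0.057, SE 0.045). Tacr3, a neurokinin receptor with 26 to 119 reads per library, had 0.927 to 1.48 CPM in WT libraries and 1.61 to 2.42 CPM in those labelled ErbB4 -/- (log2 fold change 0.52, SE 0.21). With single libraries left out, r of these 5 genes was from 0.885 to 0.983.

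On deviations from the genotype means, which leave out the difference between the labels, the genes most like Hrk were others: Rimkla, Gm15663, Qsox2, Cnnm3 and Capn7, with r from 0.943 to 0.978. On the same deviations r was 0.917 for P2rx7, 0.900 for Tacr3, 0.890 for Chrnb2, 0.870 for Tll1 and 0.830 for Coro2a. The other members were not among the genes most like Hrk. The nearest, Bcl2, had r = 0.748 over the 8 libraries (rank 490 of all tested genes) and 0.348 on the deviations (rank 3867), and Bcl2l11 had 0.327 (rank 4422) and 0.696 (rank 443). Their longest transcripts have 7191 and 5036 nucleotides, beside 5366 for Hrk.

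Markers of the cells in the tissue were read beside the Hrk difference. Of 7 neuron markers tested, 3 were above 0 and 4 below, and their summed level was 7154 to 7339 CPM in WT libraries and 7277 to 7633 CPM in those labelled ErbB4 -/-. All 8 progenitor markers were below 0, with a median log2 fold change of -0.17, 3 at an unadjusted p under 0.05 where 2.52% of all genes were so in the lower direction, and 0 passing edgeR's adjusted threshold. In WT replicate 1 they had a median log2 CPM deviation of 0.19 from the mean of the 8 libraries, the highest of the WT libraries. Their sum was 1939 to 2314 CPM against 1813 to 2166 CPM. Markers of ganglionic eminence and interneurons (3 of 8 above 0) summed to 561 to 738 CPM and 536 to 738 CPM. Among them, Nkx2-1 varied widely, at 15.9 ± 7.53 CPM in WT libraries and 15.3 ± 8.01 CPM in those labelled ErbB4 -/- (SD, n = 4 each). Microglia markers (5 of 7 above 0) summed to 45.6 to 53.6 CPM and 47.4 to 55.6 CPM, and endothelial and meningeal markers (5 of 8 above 0) to 116 to 121 CPM and 119 to 125 CPM. Red blood cell markers summed to 33.1 to 57.3 CPM in WT libraries and 23.3 to 36.2 CPM in those labelled ErbB4 -/-. Of 5 tested, 2 were above 0, and 4 adult globin genes did not pass the filter on low counts. With edgeR 2 of the 5 had an unadjusted p under 0.05, both lower, against the same 2.52% of all genes. They were Hbb-y at -1.72 (SE 0.45) and Hba-x at -1.23 (SE 0.31) on the log2 scale. In WT replicate 1 the red blood cell markers had a median log2 CPM deviation of 0.69, the highest of the WT libraries. WT replicate 1 was also the highest WT library for neuron markers (0.17) and microglia markers (0.20). It was the lowest for endothelial and meningeal markers (-0.064), and lay between for markers of ganglionic eminence and interneurons (-0.083). No gene of the 6 marker lists passed edgeR's adjusted threshold. The part of these cells in the Hrk difference was not tested.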

How the data were processed

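The members, gene lists and tests were chosen with earlier results of these data known. Alignment to mm9 (HISAT) and counting by gene symbol (HTSeq-count) were done by the authors, as their methods and processing notes state. The deposited files hold raw counts (whole numbers, not normalized), with the annotation and counting mode not given in the sources used here. The authors' table of their DESeq2 comparison (fold changes, p-values, pooled means) was not used.

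Genotypes and replicate numbers came from the labels. The counts of 14696 genes (filterByExpr, minimum count 10, minimum total 15) were tested in edgeR 4.0.16 (R 4.3.3; TMM, glmQLFit, glmQLFTest, two-sided, Benjamini-Hochberg over all genes, threshold 0.05), with steps tested on simulated data. Depth was 28205703 to 48871480 counts per library, and counting error is part of the model. Log2 CPM used a prior count of 2. Positions and lengths came from GENCODE (NCBIM37) by symbol. No replicate pair of a genotype agreed within sampling noise.

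Named genes are the members, the lowest and highest gene of each list, list genes with a small p, and the genes most correlated with Hrk. Alternatives were DESeq2 1.42.0, 2 other normalizations (RLE, upper-quartile), testing unfiltered genes or those averaging 50 counts or more, a replicate block, an Xist covariate, removal of length trends, a prior count of 0.5, other lengths, each library left out, and, added after seeing the data, WT replicate 4 alone. Plots used matplotlib 3.10.9 (Python 3.11.15).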

Additional observations from a re-analysis of the deposited data

Results flagged for a closer look

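In 3 of 22 groups of 4 libraries (the 10 members and Erbb4 in both genotypes) 1 library lay far from the rest for the range of its group, where chance gives this in about 1 of 20. Bax had 112 CPM in WT replicate 1, with the nearest WT library at 85.2 CPM. Mcl1 had 227 CPM in replicate 3 labelled ErbB4 -/-, with the nearest at 215 CPM. Bak1 had 24.3 CPM in replicate 4 labelled ErbB4 -/-, with the nearest at 22.6 CPM.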

How the results depend on the processing

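The Hrk difference was 0.33 to 0.44 on the log2 scale under the 17 alternatives, and 0 of the other 9 members and 0 genes of the 5 lists passed under any of them. The number of genes called over the whole table was less stable. Against 4 genes, it was 23 with DESeq2, 2 with length trends removed and 1 each with RLE, upper-quartile normalization, the replicate block, Xist as a covariate and WT replicate 4 alone. With single libraries left out it ran from 1 to 13: 13 without WT replicate 4, 6 without WT replicate 1, 2 without WT replicate 2 or replicate 4 labelled ErbB4 -/-, and 1 without any one of the others. The Bcl2l11 difference turned to 0.0019 with upper-quartile normalization and ran from -0.064 to 0.029 with single libraries left out. The Mcl1 difference turned to 0.043 with Xist as a covariate and 0.056 against WT replicate 4 alone, and ran from -0.067 to 0.021 with single libraries left out. The causes were not tested. Same-numbered libraries were not treated as pairs, since the labels name nothing they share and their deviations correlated by 0.023 to 0.097. Replicates 1 and 2 of both labels and replicate 3 labelled ErbB4 -/- were closest to their own number, and WT replicates 3 and 4 and replicate 4 labelled ErbB4 -/- to another. With the replicate block the Hrk difference was 0.40 (SE 0.0998), and no call among the members changed. The order of levels held in all libraries for 5 of 9 neighbouring pairs, for 7 with the median coding transcript and for 5 in WT libraries alone. Few reads limit Pmaip1 (38 to 87 per library) and Bik (6 to 17).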

Other observations

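Ratios between members were formed within each library from CPM per kilobase, as descriptions with no test. Bax over Bcl2, a ratio often used to describe how close cells are to apoptosis, was 12.3 ± 3.13 (SD, n = 4) in WT libraries and 9.56 ± 0.718 (SD, n = 4) in those labelled ErbB4 -/-, with overlapping ranges. WT replicate 1 had 16.96 and the other WT libraries 10.4 to 11.4, beside 8.76 to 10.5 in those labelled ErbB4 -/-. The sum of Bcl2, Bcl2l1 and Mcl1 over the sum of the 5 BH3-only members was 5.41 to 6.37 in WT libraries and 4.68 to 5.31 in those labelled ErbB4 -/-, which do not overlap. Hrk, chosen for its difference, is part of that sum. Without Hrk the ratio was 6.60 to 8.10 and 6.03 to 6.69, which overlap. Hrk made up 14.8% to 21.4% of the BH3-only sum in WT libraries and 19.7% to 22.3% in those labelled ErbB4 -/-. Bcl2 made up 4.14% (WT replicate 1) to 5.58% of the pro-survival sum in WT libraries and 5.77% to 6.60% in those labelled ErbB4 -/-, where Bcl2l1 and Mcl1 carried the rest.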
